A study of Mus musculus with 24 samples.

Results

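The response of ileal tissue to the CME(+) extract of Asbt-/- mice was measured against the solvent DMSO. Pieces of ileum, the final stretch of the small intestine, came from male wild-type C57BL/6J mice starved for 4 h and were kept for 8 h in culture medium with an additive. Gene counts were obtained with QuantSeq, a method that reads each polyadenylated RNA near its 3' end. The comparison used 7 of the 21 usable libraries, out of 24 deposited: those titled as Asbt-/- CME(+), replicates 1 to 4, and those titled as DMSO, replicates 2 to 4. Asbt, encoded by Slc10a2, is the carrier that takes up bile acids in the ileum. The Asbt-/- genotype is that of the mice that gave the extract, so the treated tissue was wild-type in every library and no deleted gene could be checked in it.

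The 4 Asbt-/- CME(+) libraries received an extract whose concentration is not given in the labels, and those of replicates 2 to 4 were made from 3 donor mice. The 3 DMSO libraries received 0.6% DMSO. The labels do not spell out CME. The CME(+) form was taken as the one depleted of bile acids, because the treatment text names extracts with and without depletion and a concentration of 200 µM stands beside CME(-) and tauro-conjugated chenodeoxycholic acid (tCDCA) but not beside CME(+). Whether each fragment of a group had its own animal is not stated. The p-values therefore set a group difference only against the spread among these samples, and that spread may be technical. It was estimated over the 21 usable libraries of 6 groups together. Direct comparisons were made with WT CME(+) extract (3 libraries), Asbt-/- CME(-) extract (3) and tCDCA (4).

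Bile acids made in the liver are taken back in the ileum, where they bind the nuclear receptor FXR. FXR raises Fgf15, a hormone that travels to the liver and restrains bile acid synthesis, and in mice it also acts on the carriers of ileal bile acid transport. The ileum also absorbs peptides, amino acids, sugars, phosphate and lipids through carriers and enzymes of the brush border, and its epithelium is renewed from dividing crypt cells.

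Replicate 1 of each group carries another column prefix than replicates 2 to 4, and the prefixes were taken as sequencing runs 1 and 2. The 4 Asbt-/- CME(+) libraries held 3.54 to 5.07 M counts and the 3 DMSO libraries 3.54 to 3.91 M. DMSO replicate 1, the only DMSO library of run 1, had 0.5% DMSO and is marked as removed by the submitters. Mitochondrial rRNA took 6.78% of the counts in the run 1 library of the extract and 17.57 to 19.02% in its 3 run 2 libraries, against 19.46 to 34.6% in the DMSO libraries. Across tested genes, log2 CPM of the run 2 extract libraries correlated at 0.957 to 0.961 with one another and at 0.887 to 0.891 with the run 1 library, and the DMSO libraries at 0.932 to 0.94. Every pair of replicates differed by more than sampling noise, with a chi-square of at least 7.79 per degree of freedom. The tissue label was met by high levels of the ileal bile acid carrier genes Slc10a2 and Fabp6, given below. In tissue RNA, fewer cells of a type and less RNA per cell cannot be told apart.

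Of 13125 genes tested, 303 (2.31%) were called at an adjusted p under 0.05 by edgeR's quasi-likelihood test with a term for run, 182 (1.39%) higher and 121 (0.922%) lower with the extract. Of these, 133 differed at least 2-fold, and the median log2 change over all tested genes was -0.01. An unadjusted p under 0.05 was found for 1997 genes, where 656 would be given by chance. In run 2 the groups did not overlap for 182 of the 182 genes called higher and for 117 of the 121 called lower, beside 12.3% and 11.2% of all tested genes. Over all 7 libraries they did not overlap for 106 and 79 of the called genes, beside 5.78% and 6.17% of all tested genes. The calls were made on these same libraries, so the lack of overlap describes the called genes and is no separate evidence.

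The calls rested on run 2. With run 2 libraries alone 352 genes were called (217 higher and 135 lower), 262 of them shared with the 303. In run 1 the single extract library could be set only against the removed 0.5% DMSO library: there 155 of the 303 genes (51.2%) differed in the same direction, as did 51.2% of all tested genes, and their median log2 difference in that direction was 0.01, against 0.99 in run 2. With that library added to the DMSO group 74 genes were called, and with no term for run 3. Leaving out DMSO replicate 3 left 56 calls and DMSO replicate 4 left 190. Without extract replicate 2, 3 or 4 there were 126, 149 and 135. Without any scaling between libraries 269 genes were called higher and 18 lower, and the median of all genes moved up by 0.236.

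**Figure D1:**
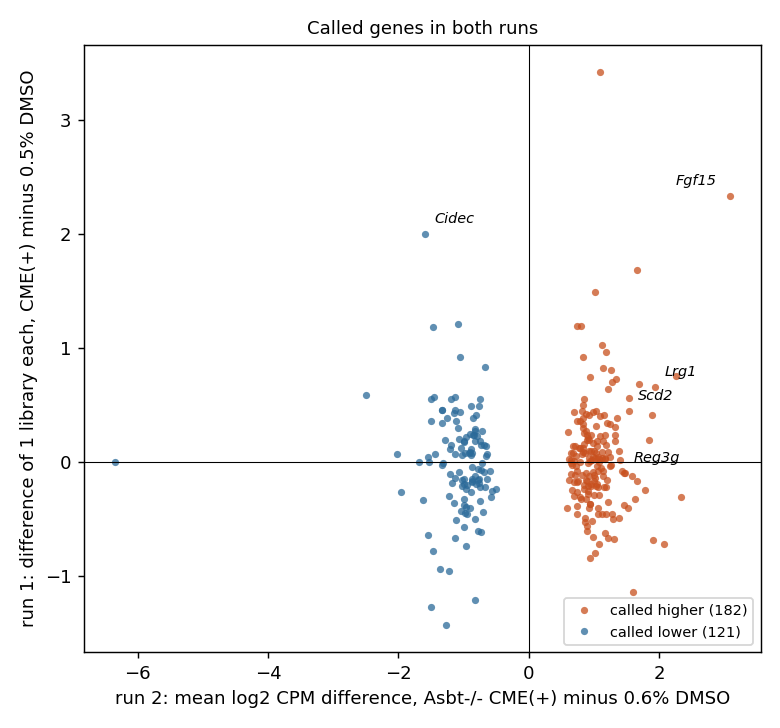
The 303 called genes, with the difference in log2 CPM between Asbt-/- CME(+) extract and 0.6% DMSO in run 2 on the horizontal axis (means of 3 libraries each) and the difference between 1 extract library and the removed 0.5% DMSO library in run 1 on the vertical axis. Genes called higher (182) lie to the right and genes called lower (121) to the left, while on the vertical axis both sets scatter around 0. The predicted gene Gm6988 at 3.415 and Fgf15 at 2.33 lie highest on that axis.

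Fgf15 (ENSMUSG00000031073), the ileal hormone gene under FXR control, showed the largest rise among the genes named here. It was at 59, 48.3, 74.1 and 83.3 CPM (counts relative to library size after TMM scaling) in the 4 extract libraries, against 7.95, 5.94 and 7.2 CPM in the 3 DMSO libraries. Every extract library lay far above every DMSO library. The fitted rise was 8.83-fold, or 3.14 ± 0.36 on the log2 scale (SE), and its edgeR adjusted p was 0.000136. In run 1 the same gene was at 59 CPM with the extract, against 10.9 CPM in the removed DMSO library. The rise held in all 23 alternative settings, between 2.96 and 3.38 log2 units.

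The other genes of bile acid handling did not pass the test. Slc10a2 (ENSMUSG00000023073), the uptake carrier gene, was at 219, 347, 282 and 355 CPM with the extract and at 658, 405 and 540 CPM with DMSO. Extract and DMSO libraries did not overlap, yet the fitted log2 difference of -0.59 had an edgeR adjusted p of 0.166. Its level in the removed DMSO library of run 1, 184 CPM, was below every extract library. Slc51b (ENSMUSG00000053862), which encodes a subunit of the exporter that passes bile acids to the blood side, was at 403, 315, 246 and 435 CPM with the extract and at 247, 171 and 196 CPM with DMSO. Its extract libraries began just under the highest DMSO library, and the log2 difference of 0.64 had an edgeR adjusted p of 0.0739. Slc51a, the gene of the other subunit, differed by 0.58 log2 units with an edgeR adjusted p of 0.155. Fabp6, which encodes the ileal bile acid binding protein, was at 2630 to 5260 CPM with the extract and at 2980 to 4250 CPM with DMSO. The efflux pump gene Abcc2 differed by -0.59 log2 units (edgeR adjusted p of 0.217). Nr0b2, another target of FXR, had a count of 0 in every library of both groups and was not tested. Of 11 tested genes of the bile acid list, 1 was called (2 without DMSO replicate 2), and the list's median log2 change was 0.07.

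**Figure D2:**
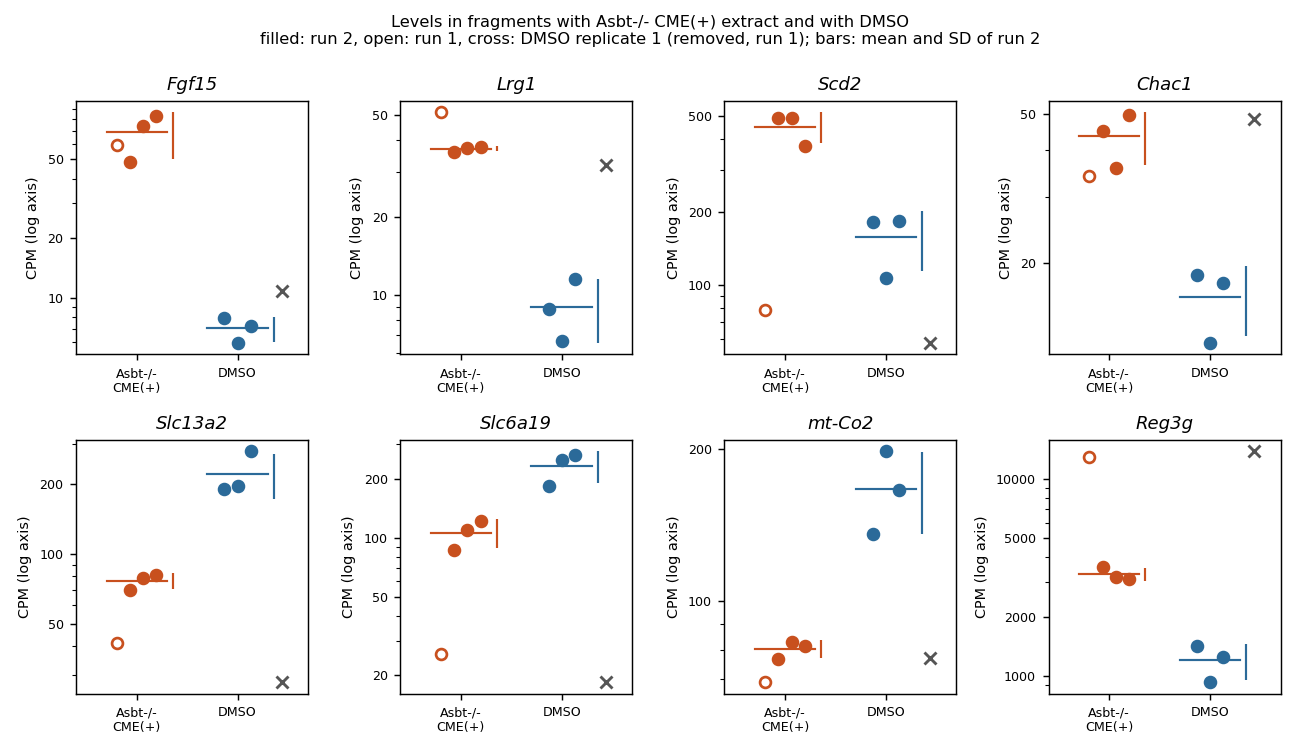
Levels of 8 genes in CPM on log axes, by library, in fragments with Asbt-/- CME(+) extract (left) and with DMSO (right). Filled points are run 2, open points run 1, the cross is the removed DMSO library of run 1, and the lines give the mean and SD of the 3 run 2 libraries. Fgf15 keeps its distance to DMSO in both runs, while Reg3g, Slc6a19 and Scd2 with the extract differ more between runs than between groups.

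Lrg1 had the smallest p among the 10 largest rises, a set limited to called genes with a proper symbol whose mean level was 3 or more on the log2 CPM scale. Lrg1 (ENSMUSG00000037095), which encodes a secreted glycoprotein of the acute phase response, was at 51.1, 35.9, 37.2 and 37.6 CPM with the extract, against 8.86, 6.64 and 11.6 CPM with DMSO. The groups were well apart, although the removed DMSO library of run 1 had 32 CPM. The rise was 2.00 ± 0.27 log2 units, 3.99-fold, with an edgeR adjusted p of 4.71e-05, and it held in all 23 alternatives. Tat, the gene of tyrosine aminotransferase, was at 100, 28.4, 17.7 and 29.6 CPM with the extract, against 6.11, 6.29 and 8.59 CPM with DMSO, a rise of 1.80 log2 units (edgeR adjusted p of 0.000669). Its run 1 library with the extract was far above the others, and the removed DMSO library of that run had 61.9 CPM. Prmt1, an arginine methyltransferase gene, was at 80.2, 78.3 and 72 CPM in the run 2 extract libraries, against 27.5, 15.4 and 23.3 CPM with DMSO. Its run 1 level with the extract, 20.6 CPM, was as low as the DMSO libraries, and the fitted rise was 1.62 log2 units with an edgeR adjusted p of 0.000369.

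Ly6g, known as a neutrophil surface marker, was at 79.2, 19, 8.06 and 26.8 CPM with the extract, against 3.36, 3.85 and 0.831 CPM with DMSO. The removed DMSO library had 98.5 CPM, above every extract library, and the edgeR adjusted p was 0.0422. None of the 12 myeloid cell markers was called, and their summed level was 98.1 to 128 CPM in the run 2 extract libraries and 87.4 to 126 CPM with DMSO. Dhrs9, a retinol dehydrogenase gene, rose by 2.01 log2 units. Ackr1, a chemokine-binding receptor gene, rose by 1.69, the nucleotide synthesis gene Prps1 by 1.55, the pentose phosphate gene Rpia by 1.42 and the pseudogene Rpl28-ps1 by 1.48. Their edgeR adjusted p-values were 0.00245 to 0.0237. The calls of Ly6g, Prps1, Ackr1 and Dhrs9 were lost in 12, 10, 9 and 7 of 23 alternatives. Those of Rpl28-ps1 and Rpia were lost in 5 each. Ackr1 in the run 1 extract library, at 4.87 CPM, lay within the DMSO libraries at 3.67 to 5.54 CPM. In run 1 Ackr1, Prps1 and Rpl28-ps1 were lower with the extract than in the removed DMSO library, and Dhrs9 and Rpia were higher.

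**Figure D3:**
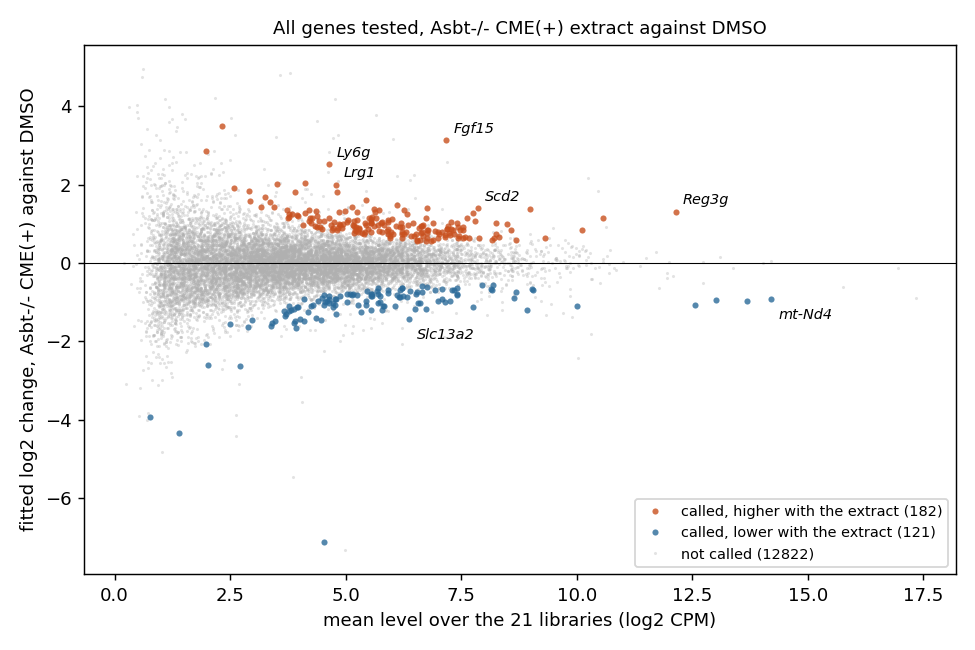
Fitted log2 change of all 13125 tested genes, Asbt-/- CME(+) extract against DMSO, by mean level in log2 CPM over the 21 libraries. Called genes are coloured (182 higher, 121 lower), Fgf15 stands at 3.14, and the grey genes centre on a median of -0.01.

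Among the large falls, Slc34a2, the intestinal phosphate carrier gene, was at 7.49, 7.78, 10.1 and 6.66 CPM with the extract, against 25.4, 24.8 and 23.5 CPM with DMSO. The groups did not overlap, and the fitted log2 change was -1.52 with an edgeR adjusted p of 0.0168. The removed DMSO library of run 1 had 5.64 CPM, below all extract libraries. Gbp4, an interferon-inducible GTPase gene, changed by -1.66 and Ube2l6, the gene of the ISG15-conjugating enzyme, by -1.47. Cidec, a lipid droplet gene, changed by -1.48 in the fit, although its run 1 extract library stood at 28.8 CPM, above all DMSO libraries. Ms4a10 (-1.61), the apolipoprotein L family gene Apol7a (-1.53), the calmodulin-binding protein gene Pcp4 (-1.47), the protease inhibitor gene Cst6 (-1.45) and the cytochrome P450 gene Cyp4f16 (-1.43) fell as well. Of the large falls named, the calls of Gbp4, Cidec, Cst6 and Cyp4f16 were lost in 12 to 14 of the 23 alternatives.

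Several genes of absorption fell with the extract, and the counts below depended on scaling between libraries: without it no brush border, lipid absorption or xenobiotic enzyme gene was called and 1 carrier gene of sugars, amino acids and peptides. For every list count below, the share over all tested genes is 1.39% called higher and 0.922% called lower. Of 15 brush border peptidase and disaccharidase genes 3 fell and none rose, and the median log2 change was -0.72. Treh, the trehalase gene, was at 5.81, 7.78, 9.62 and 13 CPM with the extract, against 24.1, 24.8 and 23 CPM with DMSO, a change of -1.23 log2 units (edgeR adjusted p of 0.0225). All extract libraries were below these DMSO libraries, but the removed DMSO library of run 1 was lower still, at 3.65 CPM. The meprin subunit gene Mep1b changed by -0.81 and the dipeptidase gene Naaladl1 by -0.84. Mep1b was at 399 CPM in the run 1 extract library, above all DMSO libraries, so its lower level was seen in run 2 alone. Leaving out single libraries gave 0 to 4 calls among the 15, with 0 without DMSO replicate 3 or extract replicate 2 and 1 without DMSO replicate 4 or extract replicate 3.

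Of 17 sugar, amino acid and peptide carrier genes 3 fell and none rose, with a median log2 change of -0.62. Slc6a19, the main neutral amino acid carrier gene of the brush border, was at 25.7, 86.9, 110 and 122 CPM with the extract, against 184, 249 and 265 CPM with DMSO. Every extract library was below every DMSO library, and the change was -1.03 ± 0.20 log2 units with an edgeR adjusted p of 0.00271. The imino acid carrier gene Slc6a20a changed by -1.13 and the peptide carrier gene Slc15a1 by -1.21. Slc15a1 was at 39.1, 26, 49.4 and 35.9 CPM with the extract, against 64.2, 121 and 79.8 CPM with DMSO. In run 1 Slc6a19 was at 25.7 CPM with the extract and at 18.4 CPM in the removed DMSO library. Leaving out single libraries gave 2 to 5 calls, 2 without DMSO replicate 3 and 5 without extract replicate 1.

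Slc13a2, the gene of the sodium-dependent citrate carrier, was at 41.2, 69.7, 78.8 and 81.1 CPM with the extract, against 191, 197 and 278 CPM with DMSO. It changed by -1.43 ± 0.21 log2 units (2.69-fold lower), with an edgeR adjusted p of 0.000183, and kept its call in 19 of 23 alternatives. Its level in the removed DMSO library of run 1, 27.9 CPM, was below every extract library. Car4, the gene of a membrane-bound carbonic anhydrase, moved the other way. It was at 514, 147, 179 and 116 CPM with the extract, against 57.2, 89.5 and 98.6 CPM with DMSO, a rise of 0.83 log2 units with an edgeR adjusted p of 0.0277. Of the 12 anion, phosphate and vitamin carrier genes tested, Car4 was the one that rose and Slc34a2 and Slc13a2 the 2 that fell (median -0.40). Without DMSO replicate 3, or without extract replicate 2, 1 of the 3 was called.

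Among 22 lipid absorption and lipoprotein genes 3 fell and none rose, with a median log2 change of -0.64. Dgat1, which encodes an enzyme of triglyceride resynthesis, was at 78.5, 58.4, 94.7 and 85.3 CPM with the extract, against 120, 201 and 168 CPM with DMSO. There was no overlap, and the change was -1.02 ± 0.18 log2 units with an edgeR adjusted p of 0.00131. Npc1l1, the cholesterol uptake gene, was at 57.3, 40.8, 39.5 and 38.7 CPM with the extract, against 66.9, 134 and 97.5 CPM with DMSO (log2 change -1.11). Its level in the removed DMSO library of run 1, 43.6 CPM, was below the run 1 extract library. Sar1b, a gene of chylomicron export from the endoplasmic reticulum, changed by -0.58. Without DMSO replicate 3, and likewise without extract replicate 2, 3 or 4, 1 gene of this list was called, and without DMSO replicate 2 there were 5. Among xenobiotic enzyme genes, 2 of 15 fell, Cyp3a13 (-0.96) and the carboxylesterase gene Ces2e (-0.66). Both belong to families of near-identical copies, so their counts are uncertain. Neither was called without DMSO replicate 3 or extract replicate 2 or 4, and 1 was called without DMSO replicate 4 or extract replicate 3.

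Markers of absorptive enterocytes, a list that shares genes with those above, went the same way. None of the 15 was called, their median log2 change was -0.75, and their summed level was 4100 to 6380 CPM in the run 2 extract libraries, against 7810 to 13700 CPM with DMSO. Their fitted changes ran from -3.87 for the lactase gene Lct to -0.16 for the peptidase gene Anpep. Both genes stand in the brush border list too, so the agreement of the lists was partly fixed in advance. The part of these markers in the lower absorption genes was not tested. Of 21 microvillus and junction genes, Cdhr2 (-0.75), Slc9a3r1 (-0.78) and Espn (-0.72) fell, with edgeR adjusted p-values of 0.0212 to 0.0276. Cdhr2 encodes a protocadherin that links microvilli, Slc9a3r1 a scaffold under the apical membrane and Espn an actin bundling protein. That list's median of -0.23 became 0.03 without scaling between libraries, and none of these genes was called without scaling, without DMSO replicate 3 or without extract replicate 2 or 4. In that list 1 gene was called without DMSO replicate 4 or extract replicate 3, and 5 without DMSO replicate 2.

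**Figure D4:**
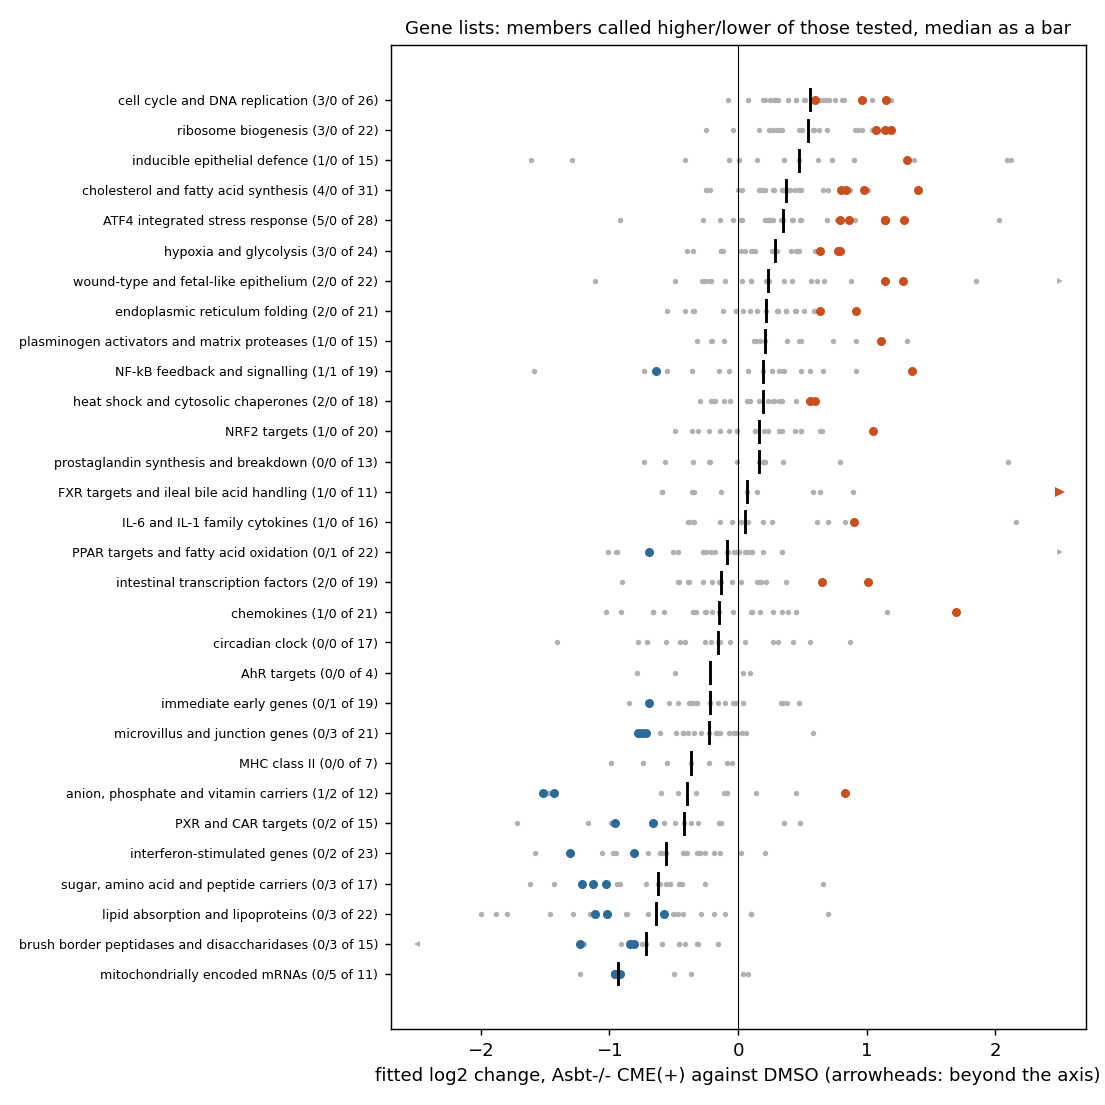
Fitted log2 change of the members of 30 gene lists, Asbt-/- CME(+) extract against DMSO. Each point is a tested gene, coloured where called, the black bar is the list's median, and the numbers give members called higher and lower of those tested. Mitochondrial mRNAs (median -0.93) and absorption genes lie at the low end, cell cycle (0.56) and ribosome biogenesis genes (0.54) at the high end.

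Some genes of lipid synthesis rose with the extract: 4 of 31 cholesterol and fatty acid synthesis genes rose and none fell, with a median log2 change of 0.37. Scd2, which encodes a stearoyl-CoA desaturase, was at 78.8, 490, 490 and 374 CPM with the extract, against 182, 107 and 184 CPM with DMSO. All 3 run 2 extract libraries were above every DMSO library, while the run 1 library was below them all, in a run whose removed DMSO library had 57.6 CPM. The rise was 1.40 ± 0.21 log2 units, 2.63-fold, with an edgeR adjusted p of 0.000136, and it was lost in 2 of 23 alternatives. Acat2, an acetyl-CoA acetyltransferase gene, rose by 0.98, the fatty acid synthase gene Fasn by 0.80 and Dhcr7, the gene of the last enzyme of a cholesterol pathway branch, by 0.84. Acat2 was at 41.9, 50.9, 53.3 and 44.6 CPM with the extract, against 18.6, 21.7 and 30.7 CPM with DMSO, with no overlap. Without DMSO replicate 3, or without extract replicate 2 or 3, 1 gene of the list was called, and without DMSO replicate 2 or extract replicate 4 there were 2.

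Of 28 genes in the integrated stress response through ATF4, the programme by which cells raise amino acid supply under stress, 5 rose and none fell (median 0.35). Chac1, which encodes a glutathione-degrading enzyme, was at 34.1, 45, 35.9 and 49.8 CPM with the extract, against 18.6, 12.2 and 17.7 CPM with DMSO. The groups did not overlap, and the rise was 1.29 ± 0.25 log2 units, 2.45-fold, with an edgeR adjusted p of 0.00206. In the removed DMSO library of run 1 it was at 48.4 CPM. The serine synthesis gene Psat1 was at 54.3, 62.7, 46 and 38.9 CPM with the extract, against 19, 23.8 and 19.9 CPM with DMSO (log2 rise 1.14). Slc7a5, the gene of a large neutral amino acid carrier, also rose by 1.14, and the one-carbon genes Mthfd2 and Shmt2 by 0.79 and 0.86. Atf4 itself differed by 0.48 with an edgeR adjusted p of 0.152, and Ddit3, a target that promotes cell death, by -0.92 with 0.111. Without DMSO replicate 3, or without extract replicate 4, 2 genes of the list were called, and without extract replicate 3 there were 3.

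The promoter of Chac1 is shown because it was the member of these 5 whose window held the letters searched for ATF4. RefSeq's window (GRCm38.p6, chr2:119350992-119351291, plus strand) runs from 250 bases before the start to 50 after it. The capitals mark TTGCATCA, the reverse complement of TGATGNAA (an ATF4 and C/EBP composite element), at positions -193 to -186 from the start.
Chac1: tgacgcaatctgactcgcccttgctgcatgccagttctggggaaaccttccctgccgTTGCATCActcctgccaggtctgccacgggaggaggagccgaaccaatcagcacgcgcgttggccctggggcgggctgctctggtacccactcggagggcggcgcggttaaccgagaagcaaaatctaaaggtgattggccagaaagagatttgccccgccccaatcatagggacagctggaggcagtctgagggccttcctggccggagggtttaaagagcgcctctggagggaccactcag
Both strands were searched. The letters were in 3.97% of 32851 single windows. Counted by gene, they were in 4.51% of the 27025 genes with a window. They were in 8 of the 26 ATF4 list genes with a window and in 1 of the 4 called ones with a window. A match in letters is a description and not a binding site.

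Some genes of growth and division rose with the extract. Of 22 ribosome biogenesis genes 3 rose (median 0.54): Gar1 and Dkc1, which encode parts of the pseudouridylation complex, by 1.07 and 1.14, and Polr1a, the large subunit gene of RNA polymerase I, by 1.19. Gar1 was at 19.9, 53.1, 51.5 and 54.1 CPM with the extract, against 27.2, 18.9 and 27.7 CPM with DMSO, so its run 1 library lay among the DMSO libraries. Of 26 cell cycle and DNA replication genes 3 rose (median 0.56). Cdc20, which activates the anaphase ubiquitin ligase, was at 58.2, 63.8, 64.5 and 59.6 CPM with the extract, against 32.7, 18.5 and 30.7 CPM with DMSO. The groups did not overlap, and the rise was 1.15 ± 0.21 log2 units with an edgeR adjusted p of 0.0015. The replication helicase gene Mcm2 rose by 0.96 and the cyclin gene Ccnd1 by 0.60. The calls depended on single libraries: 1 ribosome biogenesis gene was called without DMSO replicate 3 or 4 or extract replicate 2 or 3, and 1 cell cycle gene without DMSO replicate 3 or extract replicate 2 or 4. Without scaling 5 and 8 genes of these lists were called. Of 8 tested crypt stem cell markers Sox9 rose (0.78), and the markers' summed level was 306 to 339 CPM in the run 2 extract libraries and 212 to 311 CPM with DMSO. Sox9 was not called without DMSO replicate 3 or 4 or extract replicate 2, 3 or 4.

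Of 11 messenger RNAs encoded in the mitochondrial genome 5 fell with the extract and none rose, with a median log2 change of -0.93. Without scaling the median was -0.69 and none was called. The cytochrome oxidase gene mt-Co2 was at 68.9, 76.7, 83 and 81.3 CPM with the extract, against 136, 198 and 166 CPM with DMSO. The groups were apart, and the change was -0.96 ± 0.17 log2 units (1.95-fold lower) with an edgeR adjusted p of 0.000669. The cytochrome b gene mt-Cytb was at 12900, 7740, 7760 and 7700 CPM with the extract, against 12600, 19800 and 14500 CPM with DMSO (log2 change -0.96), and its run 1 library overlapped DMSO. The ATP synthase subunit gene mt-Atp6 changed by -0.93 and the NADH dehydrogenase genes mt-Nd1 and mt-Nd4 by -0.95 and -0.92. In run 1 mt-Co2 was at 68.9 CPM with the extract and 77 CPM in the removed DMSO library. The share of mitochondrial rRNA was 17.57, 18.8 and 19.02% in the run 2 extract libraries, against 29.17, 34.6 and 19.46% in DMSO replicates 2, 3 and 4. In the same DMSO replicates mt-Co2 was at 136, 198 and 166 CPM. The part of the rRNA share in the lower mRNAs was not tested. Leaving out DMSO replicate 3, the library of the highest share, gave 2 calls.

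A few genes of epithelial defence and repair rose. Reg3g, the gene of an antimicrobial lectin, was at 12900, 3560, 3180 and 3100 CPM with the extract, against 1420, 927 and 1240 CPM with DMSO. It rose by 1.31 ± 0.24 log2 units, with an edgeR adjusted p of 0.00151, and was the 1 called of 15 inducible defence genes (median 0.47), of which 3 were called without extract replicate 1. The removed DMSO library of run 1 was at 13800 CPM, so in that run the level was no higher with the extract. Its counts may include reads of its near-identical Reg3 relatives. Of 22 genes of the wound-type epithelium, Tinagl1, a matrix protein gene, rose by 1.28 and the keratin gene Krt7 by 1.14 (median 0.23). Tinagl1 was at 140, 307, 351 and 329 CPM with the extract, against 158, 139 and 100 CPM with DMSO, and only its run 1 library overlapped DMSO. The plasminogen activator receptor gene Plaur rose by 1.11, 1 of 15 of its list, and was not called without DMSO replicate 3 or extract replicate 4.

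Inflammatory lists gave few calls in either direction, beside 1.39% of all tested genes called higher and 0.922% called lower. Bcl3, the gene of a nuclear IκB protein, rose by 1.35 and Relb, an NF-κB subunit gene, changed by -0.64, the 2 called of 19. Without scaling, without DMSO replicate 2 or 3, or without extract replicate 2 or 3, 1 gene of that list was called. Il1rn, which encodes the antagonist of interleukin-1, rose by 0.90, the 1 of 16 cytokine list genes. Of 21 chemokine list genes, Ackr1, which binds chemokines without signalling, was the 1 called, and the median of -0.15 became 0.10 without scaling. Il1rn was called in none of the fits without DMSO replicate 2, 3 or 4 or without extract replicate 2, 3 or 4. Ackr1 was not called without DMSO replicate 3 or extract replicate 2, and without DMSO replicate 2 the chemokine list had 3 calls. Among 23 interferon-stimulated genes Oasl2 (-1.31) and Irf7 (-0.81) fell (median -0.56). Oasl2, an antiviral sensor family gene, was at 24.5, 16.4, 20.5 and 14.8 CPM with the extract, against 21.4, 58 and 40.7 CPM with DMSO. Its run 1 library overlapped DMSO, and without DMSO replicate 3 none of the 23 was called. Without scaling, without DMSO replicate 4, or without extract replicate 1, 2 or 4, 1 was called. None of 7 MHC class II genes (median -0.37) or 13 prostaglandin genes (median 0.16) was called.

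Several smaller groups gave 1 to 3 calls, beside 1.39% of all tested genes called higher and 0.922% called lower. Of 24 hypoxia and glycolysis genes, Car9, the hypoxia-induced carbonic anhydrase gene, rose by 0.78, the pyruvate kinase gene Pkm by 0.64 and the peptide hormone gene Adm by 0.79 (median 0.29). Car9 was at 154, 198 and 169 CPM in the run 2 extract libraries, against 104, 95.8 and 105 CPM with DMSO, and at 79 CPM with the extract in run 1. Of 21 endoplasmic reticulum folding genes, Pdia4 and Pdia6, which encode disulfide isomerases, rose by 0.92 and 0.64. The chaperone genes Hspa8 and Hspd1 rose by 0.60 and 0.56, 2 of 18, and the malic enzyme gene Me1 by 1.05, 1 of 20 NRF2 targets. Of 19 intestinal transcription factor genes, Cdx1 rose by 1.01 and Klf5 by 0.65, with a list median of -0.13 that became 0.11 without scaling. Fos changed by -0.69, the 1 called of 19 immediate early genes. Leaving out DMSO replicate 3, 1 hypoxia gene and none of the folding, chaperone, NRF2, transcription factor or immediate early genes was called. Single extract libraries mattered as well: 1 hypoxia gene was called without extract replicate 2, 3 or 4, and no chaperone or NRF2 gene without any one of these 3. The chaperone genes were also lost without DMSO replicate 4. No transcription factor gene was called without extract replicate 2 or 3, and 1 without DMSO replicate 2 or 4 or extract replicate 4. Of the folding genes 1 was called without extract replicate 2 or 4, and Fos was lost without extract replicate 2 and without scaling.

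Against the extract of wild-type mice in the same form, the donor genotype gave no called gene. None of the 13125 genes (0%) passed edgeR's test between Asbt-/- CME(+) and WT CME(+) extract, DESeq2 called 0, and 556 genes had an unadjusted p under 0.05 in edgeR, where 656 would be given by chance. For 252 of the 303 genes called against DMSO, the 95% interval of this difference lay within 1 log2 unit either way. Fgf15 was at 59, 48.3, 74.1 and 83.3 CPM with the Asbt-/- extract and at 75.9, 40.3 and 77.8 CPM with the WT extract. Its log2 difference was 0.09 with an interval of -0.52 to 0.70. The 5 genes with the smallest p were the splicing factor gene Prpf4 (1.13), Tat (1.01), the transcription factor gene Mef2c (1.34), the actin-associated gene Synpo (-0.73) and the defensin gene Defa33 (-4.59), each with an edgeR adjusted p of 1. Defa33 was at 1.5, 3.75, 4.42 and 6.11 CPM with the Asbt-/- extract and at 1.7, 357 and 5.03 CPM with the WT extract, so 1 library made its difference, and defensin copies share reads.

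Between the 2 forms of the Asbt-/- extract, 3 genes (0.0229%) were called, 1 higher (0.00762%) and 2 lower (0.0152%) with CME(+). Fgf15 was lower with CME(+), at 59, 48.3, 74.1 and 83.3 CPM, against 318, 329 and 216 CPM with CME(-), a log2 difference of -2.07 ± 0.28 (4.19-fold) with an edgeR adjusted p of 0.00567. The groups did not overlap. Defa5, a Paneth cell defensin gene, was lower with CME(+) as well, at 25.8, 92.8, 93.9 and 82.4 CPM, against 113, 154 and 239 CPM with CME(-) (log2 difference -1.37, edgeR adjusted p of 0.00567). Car4 was higher, at 514, 147, 179 and 116 CPM with CME(+), against 303, 54.6 and 60.4 CPM with CME(-) (log2 difference 1.12, edgeR adjusted p of 0.0325). In each run separately its CME(+) level was above its CME(-) level. Replicates 2 and 4 of both forms came from the same donor mice by their labels, and with a replicate block 1 gene, Defa5, was called, while Fgf15 had a log2 difference of -2.05 with an edgeR adjusted p of 0.0502 and Car4 one of 1.09 with 0.0974. Leaving out single libraries gave 1 to 10 calls, 10 of them without CME(-) replicate 1 and 1 without CME(-) replicate 2 or 4. DESeq2 called 56.

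**Figure D5:**
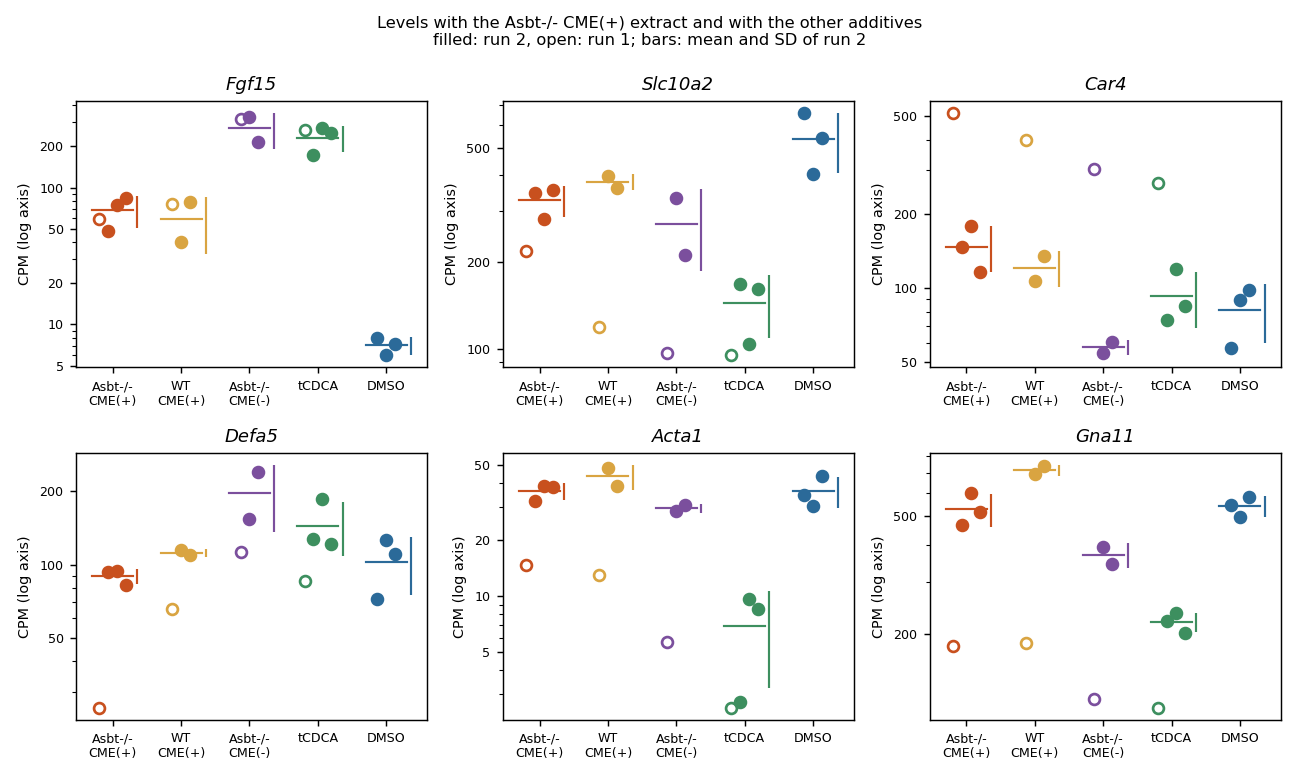
Levels of 6 genes in CPM on log axes, by library, with Asbt-/- CME(+) extract, WT CME(+) extract, Asbt-/- CME(-) extract, tCDCA and DMSO, left to right. Filled points are run 2, open points run 1, and the lines give the mean and SD of the run 2 libraries. Fgf15 with both CME(+) extracts (40.3 to 83.3 CPM) lies between DMSO (5.94 to 7.95) and CME(-) or tCDCA (174 to 329), while Acta1 and Gna11 are low with tCDCA.

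Against tCDCA, a single conjugated bile acid that binds FXR, 253 genes (1.93%) were called, 139 higher (1.06%) and 114 lower (0.869%) with the Asbt-/- CME(+) extract. Acta1, the skeletal-type muscle actin gene, was at 14.6, 32.2, 39 and 38.5 CPM with the extract, against 2.53, 2.71, 9.66 and 8.48 CPM with tCDCA. The groups did not overlap, and the log2 difference was 2.40 ± 0.29 with an edgeR adjusted p of 6.92e-06. Gna11, a G protein subunit gene, was at 183, 467, 599 and 518 CPM with the extract, against 113, 222, 235 and 202 CPM with tCDCA (log2 difference 1.11). Slc43a2, an amino acid carrier gene, and Anpep, the gene of a brush border peptidase, were higher with the extract by 1.82 and 1.39 log2 units, and the cytokine receptor gene Tnfrsf12a differed by -1.29, with edgeR adjusted p-values of 5.15e-05 to 0.000289.

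Fgf15 was lower with the extract than with tCDCA, at 59, 48.3, 74.1 and 83.3 CPM, against 265, 174, 272 and 249 CPM, a log2 difference of -1.84 ± 0.27 with an edgeR adjusted p of 0.00111. Slc10a2 was higher with the extract, at 219, 347, 282 and 355 CPM, against 95, 168, 104 and 162 CPM with tCDCA (log2 difference 1.19, edgeR adjusted p of 0.00125). Both pairs of groups were without overlap. Scd2 (1.04), Dhcr7 (0.96) and Slc6a19 (1.08) were also higher with the extract, and mt-Co2 differed by -0.94, with edgeR adjusted p-values of 0.000371 to 0.00891. With run 2 libraries alone 203 genes were called, and with no term for run 3. Of the 303 genes called against DMSO, 36 (11.9%) were called here too. Without extract replicate 1, 3 or 4 there were 147, 118 and 149 calls, and without tCDCA replicate 2 or 3 there were 166 and 159.

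Set side by side against the same DMSO libraries, which they share, 303 genes were called with the Asbt-/- CME(+) extract, 23 with WT CME(+), 125 with Asbt-/- CME(-), 39 with WT CME(-) and 746 with tCDCA. Fgf15 rose by 3.14 log2 units with Asbt-/- CME(+), 3.05 with WT CME(+), 5.21 with Asbt-/- CME(-), 4.51 with WT CME(-) and 4.98 with tCDCA. For Scd2 the fitted changes were 1.40, 1.25, 0.86, 0.75 and 0.36 in the same order of additives, and the last 2 did not pass the test. For Slc13a2 they were -1.43, -1.26, -1.73, -1.72 and -2.07. For mt-Co2 they were -0.96, -0.54, -0.37, -0.07 and -0.02, of which the first alone passed it. The 3 run 2 extract libraries also varied less among themselves, with a median coefficient of variation of 14.3% over 8221 genes, than the 3 DMSO libraries at 20.9%. Counting noise was not taken out of these values. Outside mitochondrial rRNA and 1 abundant unnamed identifier, the DMSO libraries held 1.96 to 2.34 M counts and these extract libraries 2.32 to 3.43 M. The part of depth in this difference was not tested.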

How the data were processed

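The deposited values are whole-number read counts by gene in 24 libraries, without normalization. Per the labels' protocols, 100 ng of total RNA went into each QuantSeq library. The tools HISAT2, Picard, cutadapt and FastQC and the build GRCm39 stand in the submitters' processing notes, with no versions. How reads were counted, on which strand and with which annotation is not given in the sources used here. Symbols came from GENCODE M21 (GRCm38) and named 51884 of 57126 identifiers, holding 88.4% of the counts. Overlapping genes on opposite strands are uncertain.

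From these counts, low genes were removed with filterByExpr, the 21 libraries not marked as removed were scaled by TMM, and a single quasi-likelihood fit, robust, with terms for group and run was made in edgeR 4.0.16 (R 4.3.3, limma 3.58.1). DMSO has no used run 1 library, so its run term came from the other 5 groups. Benjamini-Hochberg adjustment ran over the 13125 genes tested, tests were two-sided, and the common biological coefficient of variation was 0.266. DESeq2 1.42.0, other scalings, filters, designs and left-out libraries were alternatives. Adjusted p under 0.05 made a call. The steps were tested on simulated data.

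Named genes were 7 bile acid genes, the 10 called genes with the largest change each way with a proper symbol and mean log2 CPM of at least 3, up to 4 called members of each list with 3 or more calls, and up to 5 genes per direct comparison. A called gene that the rule selects is not reported here. Other called list members were named after their values were seen. The members and the 44 lists were chosen with earlier results of these data known. The labels name shared donor mice, which pair replicates 2 and 4 of both Asbt-/- forms. Sequences are RefSeq's for GRCm38.p6. The 3 libraries marked as removed did not enter the main fit. They entered the alternative with all 24 libraries, and DMSO replicate 1 also entered the alternatives that added it to the DMSO group. Elsewhere DMSO replicate 1 serves in the report as a described value of run 1.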

Additional observations from a re-analysis of the deposited data

Results flagged for a closer look

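In 13 of 60 named genes looked at, 1 of the 4 Asbt-/- CME(+) libraries lay far from the others. It was farther than Dixon's 95% critical value for 4 samples allows. Chance would flag about 1 in 20 groups of 4 like samples. That rate does not apply here, as replicate 1 came from another run and most of the genes were chosen for being called. In all 13 the far library was replicate 1, the run 1 library. It was the highest for 11 genes: Lrg1 at 51.1 CPM, Tat at 100 CPM, Cidec at 28.8 CPM, Pcp4 at 16.1 CPM, Mep1b at 399 CPM, Car4 at 514 CPM, Npc1l1 at 57.3 CPM, Sar1b at 119 CPM, Cdhr2 at 130 CPM, mt-Cytb at 12900 CPM and mt-Nd1 at 7080 CPM. It was the lowest for Prmt1 at 20.6 CPM and Gar1 at 19.9 CPM.

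The extract also differed from other additives in a direct test. Against the CME(-) form of the Asbt-/- extract the log2 difference was -2.07 for Fgf15, -1.37 for Defa5 and 1.12 for Car4. Against tCDCA it was 2.40 for Acta1, -1.29 for Tnfrsf12a, 1.11 for Gna11, 1.82 for Slc43a2 and 1.39 for Anpep.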

How the results depend on the processing

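Against DMSO, 303 genes were called, 182 higher and 121 lower. RLE or upper quartile scaling, a stricter filter, and leaving out mitochondrial rRNA with 1 abundant unnamed identifier gave 302 to 341. That identifier held 4.95% of the counts in the run 1 extract library, 13.36 to 16.81% in its run 2 libraries and 11.6 to 17.18% with DMSO. No scaling gave 287, split 269 higher and 18 lower. DESeq2 called 532 and no filter 476. Without a run term 3 were called, with all 24 libraries 50 and with DMSO replicate 1 added 74. The compared groups alone gave 9, in a fit that also lacked a run term, as DMSO has no used run 1 library. In fits chosen after seeing the data, the compared groups in run 2 gave 477, leaving out DMSO replicate 3 and tCDCA replicate 3 gave 109, and the compared groups with DMSO replicate 1 and a run term gave 10. Leaving out 1 library gave 56 to 401. With the replicate block 242 were called, 240 of them shared, and the xenobiotic enzyme, crypt stem cell and fibroblast lists had no call. Same-numbered extract and DMSO libraries had correlations of 0.06, 0.111 and 0.083 between their deviations from the group means, so they were taken to share a number only, although each library correlated best with its own number. Against WT CME(+), no filter gave 2 calls, leaving out 1 library 0 to 1 and the other settings 0. Against Asbt-/- CME(-), 3 were called in the reported fit, 0 without scaling, 56 with DESeq2, 59 without a filter and 75 with the compared groups alone. No run term, all 24 libraries, DMSO replicate 1 added and the replicate block each gave 1, and leaving out 1 library 1 to 10. Against tCDCA, 253 (139 higher, 114 lower) became 152 without scaling (124 higher, 28 lower), 437 with DESeq2, 3 without a run term, 227 with the replicate block and 118 to 318 without 1 library. Of 55 named genes called against DMSO, 3 kept their call in every alternative, Fgf15 and Lrg1 among them. A further 2 kept it in all but 1 or 2 alternatives, and the others lost it in more. None reversed in any alternative, but the alternatives largely reuse the same run 2 libraries, so this is no separate evidence. The cause of the changes in these counts was not tested.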

Other observations

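Markers of the other cell types of the ileum gave few calls between the Asbt-/- CME(+) extract and DMSO. Of 9 Paneth, 11 goblet and 6 tuft cell markers tested none was called, with median log2 changes of 0.02, 0.07 and 0.39. Summed Paneth markers were at 27100 to 30400 CPM in the run 2 extract libraries and 24700 to 28100 CPM with DMSO, and summed goblet markers at 5700 to 6550 CPM and 5950 to 7650 CPM. Of 16 enteroendocrine markers Tac1, the substance P precursor gene, rose by 0.96 log2 units. It was at 286, 34.1, 35.9 and 40.4 CPM with the extract, against 14.4, 21 and 17.5 CPM with DMSO, and at 271 CPM in the removed DMSO library. It was not called when any 1 of the 3 DMSO libraries or of extract replicates 2 to 4 was left out, and without extract replicate 1 the list had 3 calls. Of 11 smooth muscle markers Myl9, a myosin light chain gene, changed by -0.70 (list median -0.55), and of 11 fibroblast markers the matrix gene Dcn by -0.64 (list median -0.36). Myl9 was the only call of its list and was lost without scaling, without DMSO replicate 3 and without extract replicate 2 or 4. Dcn was lost without scaling, without DMSO replicate 3 or 4 and without extract replicate 2, 3 or 4. None of the T and NK (8 tested), B and plasma (4), endothelial (10) or enteric neuron and glia (10) markers was called. Of 5 adipocyte and mesothelium markers Cidec, which enterocytes also express, was the 1 called, and that list had no call without scaling, without DMSO replicate 3 or without extract replicate 2, 3 or 4.

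Among the remaining lists, 1 of 22 PPAR targets fell, the fatty acid hydroxylase gene Cyp4f14 (-0.69), beside 0.922% of all tested genes called lower. The list's median of -0.09 became 0.14 without scaling. No PPAR target was called without scaling, without DMSO replicate 3 or 4 or without extract replicate 2 or 4, and 2 were called without DMSO replicate 2. None of 4 AhR targets (median -0.22) or 17 circadian clock genes (median -0.16) was called, and without scaling these medians were 0.01 and 0.07.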
